A study of Homo sapiens with 6 samples.

Results

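Antisense genes are transcribed from the strand opposite a neighbouring gene and carry that gene's name with the ending -AS and a number. The genes described here are the rows of the deposited table with such a name and a mean normalized count of at least 20 over the 6 libraries of KLF5-silenced and control SKOV3 cells, and the gene named before the ending is called the sense partner. The rule kept 235 of 789 antisense genes in a table of 29185 genes, and left 554 under the mean of 20. A row for the sense partner was present for 225 of the 235, which made 225 pairs with 221 distinct partners.

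Antisense RNAs are mostly noncoding, spliced and polyadenylated, and many start close to the promoter of their partner, from which transcription can leave in both directions. Some are known to act on their partner in cis, by altering its transcription, splicing or RNA stability, and others work elsewhere in the cell or only share a promoter region with it. KLF5 is a zinc finger transcription factor of the Kruppel-like family that binds GC-rich and CACCC-type DNA elements and is known for its part in epithelial growth and stemness.

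SKOV3 cells are an established line from a human ovarian cancer. The sh-KLF5 group (3 libraries) consisted of SKOV3 cells made stable by a lentiviral pLKO.1-EGFP-Puro vector with a hairpin against KLF5 and by selection with puromycin, and the sh-NC group (3 libraries) is the control line, whose genotype the labels give as WT. The sources describe 1 hairpin group in 1 cell line and name no drug treatment for it, and they do not say whether the 3 libraries of a group came from separate infections, so that p-values measure the spread between these libraries, which may be technical. The question was which transcripts change when KLF5 is silenced.

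Between 15852319 and 17543896 reads were recovered per library. KLF5 itself fell from a normalized count (reads divided by 1 factor per library) of 4430 ± 61.3 in the controls to 1540 ± 177 after silencing (SD, n = 3 each), which left 34.8% of the control level. Its log2 fold change was -1.53 (SE 0.12, limma adjusted p = 2.47e-07). Among markers, the epithelial keratins KRT8 and KRT18, ERBB2, PAX8 and EPCAM were expressed in every library, KRT19 and ESR1 lay under 20, MUC16 lay between 15.3 and 115, and WT1 has no row. KRT8 (45.0% of the control level, log2 fold change -1.17, adjusted p = 4.35e-05) and MUC16 (35.0%, -1.54, adjusted p = 0.00737) were called lower, and KRT18 (64.3%, -0.64, adjusted p = 0.00343) was lower under the fold threshold. Of the markers of other cells, PTPRC and CDH5 had normalized counts of 0 to 2.96, VWF and PDGFRB stayed under 19, and CD3E has no row. CD14, PECAM1, LUM and DCN were counted in all 6 libraries, and DCN was lower in sh-KLF5 (58.2 to 113) than in sh-NC (233.5 to 398), and the part of these marker changes in the results was not tested. In bulk RNA, fewer cells of a kind and less RNA per cell cannot be told apart.

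The 235 antisense genes were mostly weakly expressed and gave a small share of the RNA. Their mean normalized count ran from 20.1 to 2984 with a median of 48.1, and 6 lay over 1000, 60 from 100 to 1000, and 169 under 100. Together they held 0.184% of the reads in sh-NC and 0.185% in sh-KLF5. In the annotation, 173 were of the antisense type, 30 processed transcripts, 26 lincRNAs, and the others pseudogenes and single cases, among them NCBP2-AS2, which is annotated as protein coding. At the minimum, RDH10-AS1 (20.1), PKP4-AS1 (20.2) and EDRF1-AS1 (20.2) were just inside, and RTCA-AS1 (19.4), POLH-AS1 (19.7) and DDN-AS1 (19.8) just outside. The mean was reached in both groups by 204 of the genes, in sh-NC only by 18 and in sh-KLF5 only by 13.

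The highest mean belonged to OIP5-AS1 (ENSG00000247556), the long RNA also known as Cyrano, on chromosome 15 (41283990 to 41309737, + strand of GRCh38). Listed by replicate 1, 2 and 3, as for all genes that follow, its normalized count was 2969, 2749 and 2905 in the controls and 3715, 2957 and 2610 after silencing. The groups overlapped, with the highest and the lowest value both in sh-KLF5, and the log2 fold change was 0.09 (SE 0.13, adjusted p = 0.707). FGD5-AS1 (1975 ± 86.8 in sh-NC and 2151 ± 488 in sh-KLF5), GABPB1-AS1 (1658 ± 310 and 1496 ± 112), IGFL2-AS1 (1472 ± 188 and 1240 ± 127) and LRRC75A-AS1 (1073 ± 96.3 and 1279 ± 60.7; SD, n = 3 for all) followed, and none of these 5 passed the test. LRRC75A-AS1, whose introns hold small nucleolar RNAs, was the only one of the 5 whose groups did not overlap (log2 fold change 0.26, adjusted p = 0.172).

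Levels of different genes can be set side by side only per length. Per kilobase of gene length, IGFL2-AS1 stood highest with a normalized count of 775, followed by FGD5-AS1 (402), WNT5A-AS1 (344), LRRC75A-AS1 (313) and NCBP2-AS2 (239.6), while the median of the 235 was 21.6. The partner had the higher level per kilobase in 175 of 225 pairs and the antisense gene in 50, and the median ratio of partner to antisense gene was 4.24. At one end stood FGD5-AS1, whose partner FGD5, an exchange factor for the small GTPase CDC42, was listed at 0 in all sh-KLF5 libraries and at 1.86, 0 and 3.18 in sh-NC. WNT5A, the noncanonical Wnt ligand, lay at 944 per kilobase against 344 for WNT5A-AS1.

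**Figure D1:**
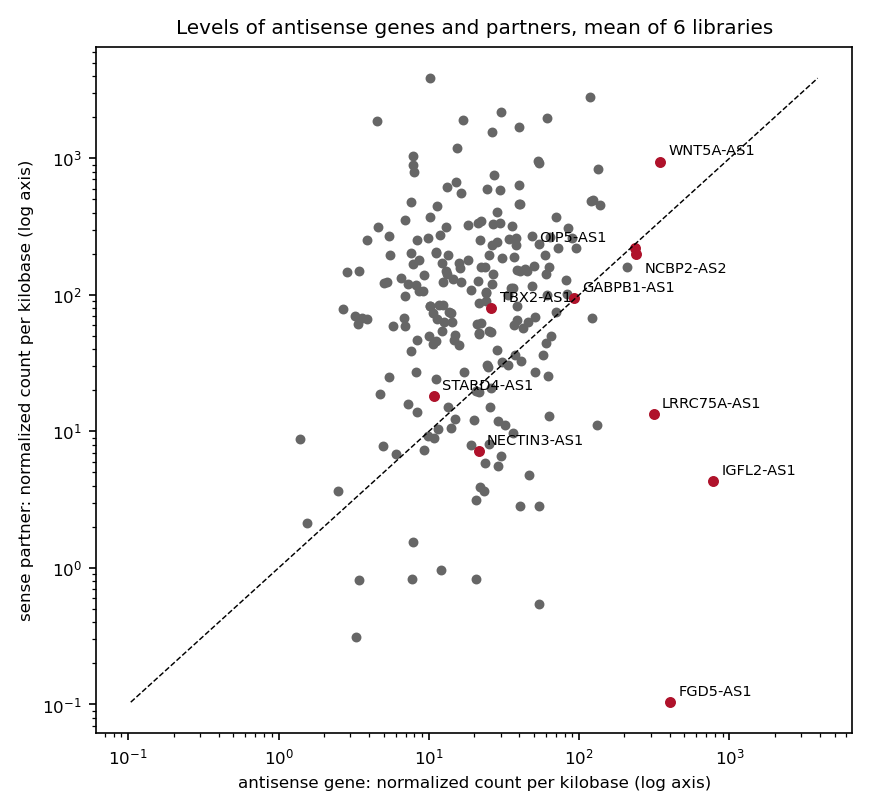
Mean normalized count per kilobase of gene length over the 6 libraries for each antisense gene (horizontal log axis) and its sense partner (vertical log axis), 1 point per pair, with the dashed line at equal levels and named genes in red. In 175 of 225 pairs the point lies above the line, and FGD5-AS1 and IGFL2-AS1 lie far below it.

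By position, 195 of the 225 pairs lay on opposite strands with overlapping spans, 28 stood head to head without overlap and 2 tail to tail. The annotated starts were within 1000 bases in 82 pairs, farther but within 10000 bases in 40 and beyond that in 103, with a median distance of 5083 bases. Exonic bases shared with a gene on the other strand were present in 186 of the 235 antisense genes, with a median over all 235 of 8.22% of their exonic bases and a maximum of 55.5%. The sources used here do not state whether the counting used strand, and without strand, reads from a shared stretch cannot be assigned to 1 of the overlapping genes. A mean of at least 20 was reached by 49 of 250 antisense genes with no shared exonic base (19.6%), by 142 of 367 with up to 25% shared (38.7%), by 42 of 120 with 25% to 50% shared (35.0%) and by 2 of 52 with more than 50% shared (3.85%).

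Few of these genes differed between sh-KLF5 and sh-NC. Calls required a limma p-value under 0.05 after Benjamini-Hochberg adjustment over the 15803 genes tested, together with a log2 fold change beyond 1 in either direction. All 235 antisense genes were tested, and 7 were called lower (2.98%) against 3.37% of all tested genes, or 2.62% of the tested genes that also had a mean of at least 20. Another 3 were called higher (1.28%) against 1.9% of all tested genes and 1.88% of those with a mean of at least 20. These shares lie near the background. The median log2 fold change was 0.01 over the antisense genes and -0.00 over all tested genes, and 177 of the 235 moved by less than 0.5 in either direction. The antisense genes had a median level of 48.1 against 329 for all tested genes, and a median SE of the log2 fold change of 0.27 against 0.16.

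With the adjusted p-value alone, 11 antisense genes were lower and 7 higher against 6.85% and 6.04% of all tested genes, and together the 18 (7.66%) stand against 12.9%. The groups did not overlap in 55 antisense genes (23.4%), 34 with sh-KLF5 below and 21 with sh-KLF5 above, against 31.3% of all tested genes. Among other noncoding genes, 15 of 157 tested genes named LINC (9.55%) were called, 8 lower and 7 higher, against 10 of the 235 antisense genes (4.26%) and 5.28% of all tested genes, and none of 16 tested genes named -IT or -OT were called by limma. Of the 105 antisense genes under the mean of 20 that were tested, 2 were called lower and 2 higher. The difference between these classes was not tested.

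The largest fall on the log2 scale belonged to CCDC144NL-AS1 (ENSG00000233098) on chromosome 17 (20868433 to 21002276, + strand), in a region with near-identical copies of the CCDC144 family, so that the assignment of its reads is uncertain. Listed as normalized counts, it had 77.3, 68.0 and 61.5 in sh-NC and 0, 0.970 and 1.003 in sh-KLF5, that is 210 reads against 2. Every sh-NC library was far above every sh-KLF5 library. Scaled by the factors per library, the reads in sh-KLF5 amounted to 0.959% of those in sh-NC (exact 95% interval 0.115% to 3.51%, counting error only), and limma gave an adjusted p of 1.2e-06. The partner CCDC144NL had 17 reads in sh-NC and 0 in sh-KLF5, too few to be tested.

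TP73-AS1 (ENSG00000227372) on chromosome 1 (3735511 to 3747373, - strand) overlaps the 3' end of TP73, a relative of the p53 tumour suppressor, and shares 633 of its 9701 exonic bases with it. It had normalized counts of 55.9, 42.4 and 42.4 in sh-NC and 0, 0 and 5.01 in sh-KLF5. The groups were well apart, and the 5 reads in sh-KLF5 all lay in library 3. The log2 fold change was -4.71 (SE 0.65, adjusted p = 0.000109). TP73 had 33.5, 30.6 and 34.0 against 13.3, 20.4 and 18.1, without overlap but without passing the test (log2 fold change -0.90, adjusted p = 0.088).

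HOXB-AS3 (ENSG00000233101) lies in the cluster of HOXB homeobox genes on chromosome 17 (48549630 to 48606414, + strand), and 575 of its 1913 exonic bases are shared with genes on the other strand (HOXB3, HOXB5 and HOXB6 among them). It had normalized counts of 43.8, 39.4 and 28.6 in sh-NC and 5.10, 4.85 and 1.003 in sh-KLF5, with no overlap and 9.79% of the control level left (log2 fold change -3.18, SE 0.51, adjusted p = 0.000404). Of the homeobox genes beneath it, HOXB5 was called lower (log2 fold change -2.55, adjusted p = 0.000325), whereas the log2 fold changes of HOXB3 and HOXB6 were -0.59 (adjusted p = 0.0184) and -0.53 (adjusted p = 0.0776). None of the other 6 antisense genes of HOX clusters (HOXA-AS2, HOXA-AS3, HOXB-AS4, HOXC-AS1, HOXC-AS2 and HOXD-AS2) was called, with log2 fold changes from -0.64 in HOXB-AS4 to 0.37 in HOXA-AS2.

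The pair of TBX2-AS1 and TBX2 fell together. TBX2 encodes a T-box transcription factor that represses cell cycle inhibitor genes, and it was among the genes that the study followed by qPCR. TBX2-AS1 (ENSG00000267280) on chromosome 17 (61393456 to 61411555, - strand) spans the whole of TBX2 (61399896 to 61409466, + strand) but shares no exonic base with it. TBX2-AS1 had normalized counts of 48.4, 57.2 and 36.1 in sh-NC and 9.17, 23.3 and 14.04 in sh-KLF5. TBX2 went from 1021, 714 and 832 to 103, 128 and 103. Neither gene's groups overlapped, and TBX2 fell further, with 13.0% of the control level left against 32.8% for TBX2-AS1 (log2 fold changes -2.92, SE 0.16, adjusted p = 6.93e-09, and -1.61, SE 0.37, adjusted p = 0.00732). Without sh-NC replicate 2, the adjusted p of TBX2-AS1 was 0.0596.

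DLX6-AS1, whose mouse counterpart is known as Evf2, and DLX6, a distal-less homeobox gene, were the other pair in which both genes were called lower. DLX6-AS1 (ENSG00000231764) on chromosome 7 (96955141 to 97014065, - strand) had normalized counts of 30.7, 34.5 and 30.8 in sh-NC and 15.3, 13.6 and 14.04 in sh-KLF5, and DLX6 had 27.9, 65.0 and 37.1 against 14.3, 24.3 and 13.0. The values of DLX6-AS1 were tight within each group, those of DLX6 were spread in sh-NC, and neither overlapped between groups. The log2 fold changes were -1.11 (SE 0.33, adjusted p = 0.0375) and -1.25 (SE 0.38, adjusted p = 0.0383). The call of DLX6-AS1 was lost without any 1 of sh-NC replicates 1, 2 and 3 (adjusted p = 0.117, 0.158 and 0.0939) and of sh-KLF5 replicates 2 and 3 (0.0808 and 0.0644), and that of DLX6 without sh-NC replicate 2 or 3 or sh-KLF5 replicate 3 (0.249, 0.101 and 0.0895).

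SOCS2-AS1 (ENSG00000246985) on chromosome 12 (93542463 to 93571768, - strand) lies across the start of SOCS2, a feedback inhibitor of cytokine and growth hormone signalling, and shares 277 of its 3816 exonic bases with it. SOCS2-AS1 had normalized counts of 62.4, 54.2 and 62.6 in sh-NC and 27.5, 29.1 and 25.1 in sh-KLF5. SOCS2 had 643, 584 and 557 against 359, 273 and 289.8. Both dropped to about the same share of the control level, 45.6% and 51.6%, without overlap of the groups. SOCS2-AS1 was called (log2 fold change -1.10, SE 0.26, adjusted p = 0.00931) and SOCS2, with -0.96 (SE 0.14, adjusted p = 0.000188), passed the p threshold but not the fold. Without sh-NC replicate 1, SOCS2-AS1 had an adjusted p of 0.0511, and without sh-NC replicate 3 or sh-KLF5 replicate 1, the log2 fold change of SOCS2 was -1.01 or -1.08 and passed the fold too.

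TTN-AS1 (ENSG00000237298) on chromosome 2 (178521183 to 178779963, + strand) shares 11381 of its 20654 exonic bases with TTN, the giant muscle protein titin, so that its count is uncertain if strand was not used. It had normalized counts of 47.5, 43.4 and 38.2 in sh-NC and 22.4, 24.3 and 15.04 in sh-KLF5, and those of TTN were 307, 359 and 236 against 215, 198 and 218. TTN-AS1 was called with a log2 fold change of -1.05 (SE 0.31, adjusted p = 0.0352), and TTN had -0.49 (adjusted p = 0.0655). The call was lost without any 1 of the sh-NC replicates (adjusted p = 0.146, 0.123 and 0.0739) and without sh-KLF5 replicate 3 (0.0977).

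**Figure D2:**
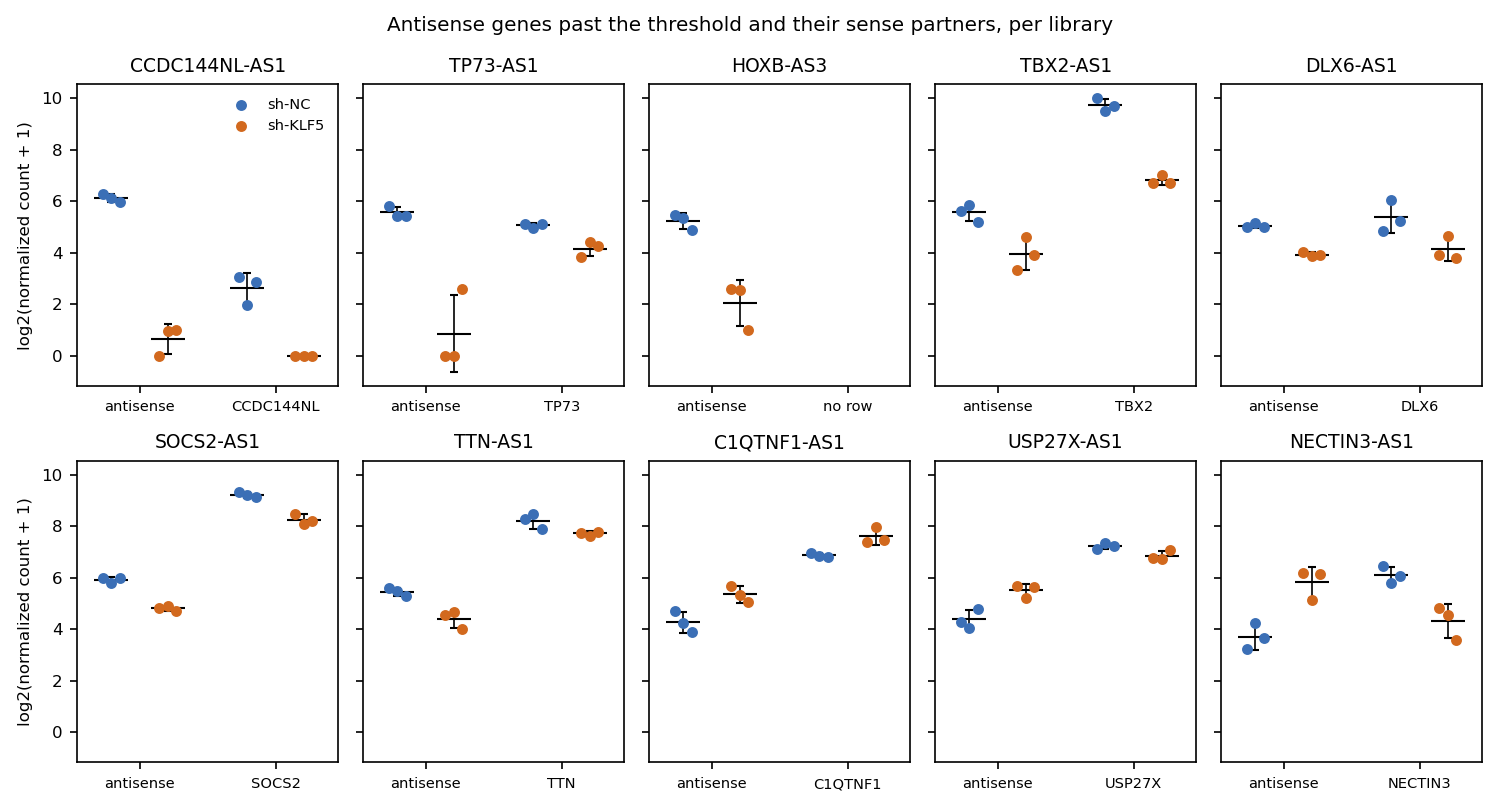
Values of log2(normalized count + 1) in each library for the 10 called antisense genes and, to their right, their sense partners, in sh-NC (blue) and sh-KLF5 (orange), with lines at the mean and bars of 1 SD (n = 3). The groups of each antisense gene do not overlap. In counts not divided by gene length, NECTIN3-AS1 and NECTIN3 cross, at 12.6 and 68.9 in sh-NC and 58.8 and 20.3 in sh-KLF5 on the unlogged scale.

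NECTIN3-AS1 was the antisense gene with the largest rise, and its partner fell. NECTIN3 encodes a nectin, an immunoglobulin-like adhesion molecule of adherens junctions. NECTIN3-AS1 (ENSG00000242242) on chromosome 3 (110893708 to 111071553, - strand) had normalized counts of 8.38, 17.7 and 11.7 in sh-NC and 72.4, 34.0 and 70.2 in sh-KLF5. NECTIN3 (111070071 to 111275563, + strand) had 86.6, 54.2 and 65.8 in sh-NC and 27.5, 22.3 and 11.0 in sh-KLF5. In counts not divided by gene length, the partner was the higher of the pair in every sh-NC library and the antisense gene in every sh-KLF5 library. This order describes counts and not levels per kilobase. NECTIN3-AS1 rose to 467% of the control level (log2 fold change 2.12, SE 0.38, adjusted p = 0.00115), and NECTIN3 dropped to 29.5% (log2 fold change -1.78, SE 0.34, adjusted p = 0.00201). The starts are 1482 bases apart and the exons share no base, and this was the only one of 214 tested pairs with calls in opposite directions.

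USP27X-AS1 and C1QTNF1-AS1 were also called higher. USP27X-AS1 (ENSG00000234390) on chromosome X (49876724 to 49879241, - strand) starts 707 bases from USP27X, which encodes a ubiquitin protease, with no overlap. It had normalized counts of 18.6, 15.8 and 26.5 in sh-NC and 49.9, 35.9 and 49.1 in sh-KLF5 (log2 fold change 1.13, SE 0.32, adjusted p = 0.0274), while USP27X had 139, 163 and 148 against 107, 104 and 133 (log2 fold change -0.39, adjusted p = 0.193). C1QTNF1-AS1 (ENSG00000265096) on chromosome 17 (79019209 to 79027655, - strand) had 25.1, 17.7 and 13.8 against 51.0, 38.8 and 32.1 (log2 fold change 1.08, SE 0.34, adjusted p = 0.0452). Its partner C1QTNF1, a secreted relative of the complement component C1q, changed the same way (log2 fold change 0.72, adjusted p = 0.0174). The groups did not overlap in any of these 4 genes, but both calls depended on single libraries. USP27X-AS1 lost its call without sh-NC replicate 1 or 2 or sh-KLF5 replicate 1 or 3 (adjusted p = 0.0816, 0.119, 0.0534 and 0.0763), and C1QTNF1-AS1 without sh-NC replicate 2 or 3 or sh-KLF5 replicate 1 or 2 (0.126, 0.155, 0.115 and 0.105). C1QTNF1-AS1 was also not called by edgeR (0.0528) or DESeq2 (0.0508).

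CCDC144NL-AS1, TP73-AS1, HOXB-AS3 and NECTIN3-AS1 kept their calls without any 1 of the 6 libraries. All 10 called genes had a mean under 50, and 5 of the 7 that fell reached the mean of 20 in sh-NC only, as 2 of the 3 that rose reached it in sh-KLF5 only. Such a gene is in the set through the group in which it is high, so that the counts of calls are a description.

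Changes of 0.59 to 0.93 on the log2 scale, under the fold threshold, passed the adjusted p-value in 8 antisense genes. NR2F1-AS1 rose from 171 ± 9.68 to 301 ± 52.1 (SD, n = 3; log2 fold change 0.80, adjusted p = 0.003) beside NR2F1, an orphan nuclear receptor gene that rose by 0.64 (adjusted p = 0.00132). ARHGAP5-AS1 (0.90), LBX2-AS1 (0.93) and RAET1E-AS1 (0.59) also rose, while their partners had adjusted p-values of 0.402, 0.887 and 0.643. PCBP1-AS1 (-0.63), RPARP-AS1 (-0.66) and the antisense genes of DLGAP1 were lower.

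In 8 pairs the partner was called and the antisense gene was not. STARD4 encodes a protein that carries cholesterol between membranes, and it fell to 4.02% of the control level, from 263, 181 and 151 to 9.17, 8.73 and 6.02 (log2 fold change -4.45, SE 0.30, adjusted p = 6.65e-08). STARD4-AS1 (ENSG00000246859) on chromosome 5 (111512226 to 111739726, + strand), whose start is 364 bases from that of STARD4, had 64.2, 63.1 and 44.6 in sh-NC and 73.4, 64.0 and 56.2 in sh-KLF5. Its groups overlapped (log2 fold change 0.18, SE 0.24, adjusted p = 0.692). The first exons of STARD4-AS1 and STARD4 overlap, so reads from the shared stretch are of uncertain origin if strand was not used.

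DLGAP1, a scaffold gene of the postsynaptic density, holds 2 of the antisense genes within its span on chromosome 18. DLGAP1 had normalized counts of 100.6, 54.2 and 47.7 in sh-NC and 0, 0 and 3.01 in sh-KLF5, that is 208 reads against 3. Scaled by the factors per library, this was 1.45% of the control (exact 95% interval 0.297% to 4.31%). DLGAP1-AS1 (3593732 to 3598352) had 108, 110 and 95.5 against 51.0, 72.8 and 70.2, and DLGAP1-AS2 (3603000 to 3608336) had 207, 206 and 230 against 135, 116 and 126. Both fell without overlap and stayed far above their partner in sh-KLF5 (log2 fold changes -0.70, SE 0.22, adjusted p = 0.0438, and -0.76, SE 0.16, adjusted p = 0.00448). Their starts are 861603 and 852335 bases from that of DLGAP1, and they share no exonic base with it. DLGAP1-AS1 no longer passed the adjusted p-value without sh-NC replicate 1, 2 or 3 (adjusted p = 0.147, 0.172 and 0.0839). The same held without sh-KLF5 replicate 1 or 2 (0.0887 and 0.0553).

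EPB41L4A, a gene of the band 4.1 family of membrane-cytoskeleton linkers, was called lower (log2 fold change -1.20, adjusted p = 0.00145), and EPB41L4A-AS1 had 0.60 with overlapping groups (adjusted p = 0.131). RDH10, the retinol dehydrogenase that makes retinaldehyde, was called lower with a log2 fold change of -1.77 (adjusted p = 9.86e-06). Its antisense gene RDH10-AS1 had 27.9, 23.7 and 29.7 in sh-NC and 6.12, 24.3 and 9.02 in sh-KLF5 (log2 fold change -1.20, adjusted p = 0.1). Library 2 of sh-KLF5 alone lay within the control range, and without it RDH10-AS1 would be called (log2 fold change -1.73, adjusted p = 0.022). No reason to leave that library out is known. RDH10-AS1 was not called without sh-NC replicate 1, 2 or 3 (adjusted p = 0.233, 0.193 and 0.254) or sh-KLF5 replicate 1 or 3 (0.216 and 0.179). Nor was it called by edgeR (0.167) or DESeq2 (0.188). VIM-AS1, at 4.66, 0 and 2.12 in sh-NC and 0 in every sh-KLF5 library, was too low for the set, and of the 9 genes followed by qPCR, TBX2, RDH10 and VIM alone had an antisense gene in the table.

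Partners called higher were CEBPB, a C/EBP transcription factor gene, MYLK, the gene of myosin light chain kinase, and GAS6, the ligand of the AXL receptor family. CEBPB rose by 1.10 (SE 0.13, adjusted p = 2.24e-05) and CEBPB-AS1 had a log2 fold change of -0.20 (adjusted p = 0.723). MYLK rose from 645 ± 9.63 to 1664 ± 14.7 (SD, n = 3; log2 fold change 1.37, adjusted p = 3.98e-07), while MYLK-AS1 had 19.6, 19.7 and 19.1 in sh-NC and 37.7, 11.6 and 19.1 in sh-KLF5, with the sh-KLF5 libraries on either side of the control. GAS6 rose by 1.14 (adjusted p = 2.74e-05), and GAS6-AS1, with 15.8, 13.8 and 8.49 against 28.5, 30.1 and 25.1, was higher without overlap by a similar 1.11 that did not pass the test (adjusted p = 0.0628).

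Over the 214 pairs in which both genes were tested, 2 had both genes called lower, 1 had the antisense gene higher and the partner lower, and in 198 neither was called. The antisense gene alone was called in 5 pairs (3 lower, 2 higher) and the partner alone in 8 (5 lower, 3 higher). Among the 210 tested partners, 7 were called lower (3.33%) and 3 higher (1.43%), against 3.37% and 1.9% of all tested genes. The log2 fold changes had the same sign in 126 of 214 pairs (58.9%), and their correlation across pairs was 0.24 (Pearson) and 0.26 (Spearman). Both genes of a pair were read from the same 6 libraries, many share exonic bases, and pairs are not independent replicates, so these values describe the set.

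**Figure D3:**
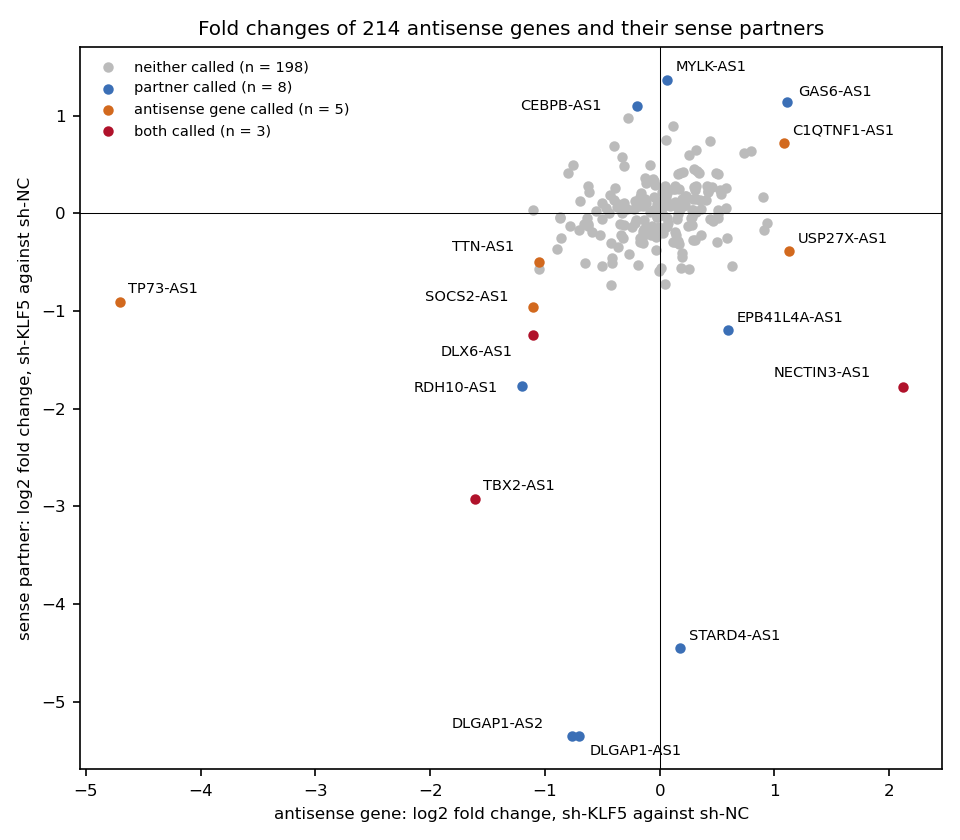
Log2 fold change in sh-KLF5 against sh-NC of each antisense gene (horizontal axis) and its sense partner (vertical axis), 1 point per pair for 214 pairs, coloured by which gene was called. TBX2-AS1 and DLX6-AS1 lie at lower left with both genes called, NECTIN3-AS1 lies farthest to the right at 2.12 with its partner at -1.78, and STARD4-AS1 and both DLGAP1 pairs lie low with the antisense gene within 1 of 0.

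Within each library, the antisense gene was set against its partner as log2(antisense + 1) minus log2(partner + 1), and the sh-KLF5 mean minus the sh-NC mean says how far the balance moved. With 3 libraries against 3, the exact 2-sided permutation test cannot give a p under 0.1, so that no pair can pass 0.05, and the libraries' values are given instead. The log ratios did not overlap in 48 of the 214 tested pairs, 22 with sh-KLF5 above and 26 below. For single genes, the groups did not overlap in 31.3% of all tested genes, and no share for other gene pairs is given here. Only the 48 separated pairs were ranked, so their lack of overlap and their exact permutation p of 0.1 follow from the selection. Among them, the balance moved toward the antisense gene most in DLGAP1-AS1 (by 4.65), STARD4-AS1 (4.63), DLGAP1-AS2 (4.59), NECTIN3-AS1 (3.90) and EPB41L4A-AS1 (1.80). It moved toward the partner most in TP73-AS1 (-3.80), MYLK-AS1 (-1.30), CEBPB-AS1 (-1.30), PRR7-AS1 (-1.25) and LAMTOR5-AS1 (-1.25). DLGAP1 and TP73-AS1 lay near 0 in sh-KLF5, so the size of these shifts depends on the added 1. With pseudocounts of 0.1 and 5, the log2 fold change of DLGAP1 was -7.67 and -3.56, and that of STARD4 was -4.60 and -3.94.

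In STARD4-AS1 and the DLGAP1 pairs the partner had the larger log2 fold change, in TP73-AS1 the antisense gene had it, and in NECTIN3-AS1 both genes were called. TBX2-AS1 (1.31) and USP27X-AS1 (1.51) were also separated, with TBX2 lower than TBX2-AS1 relative to the controls. In DLX6-AS1 (0.14), SOCS2-AS1 (-0.15) and GAS6-AS1 (-0.02) the log ratios overlapped between the groups. PRR7-AS1 had a log2 fold change of -0.28 (adjusted p = 0.576) beside PRR7, a transmembrane adaptor gene that rose by 0.97 (adjusted p = 0.000265), and LAMTOR5-AS1 had -0.75 (adjusted p = 0.0741) beside LAMTOR5, a subunit gene of the lysosomal Ragulator complex that rose by 0.50 (adjusted p = 0.018).

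**Figure D4:**
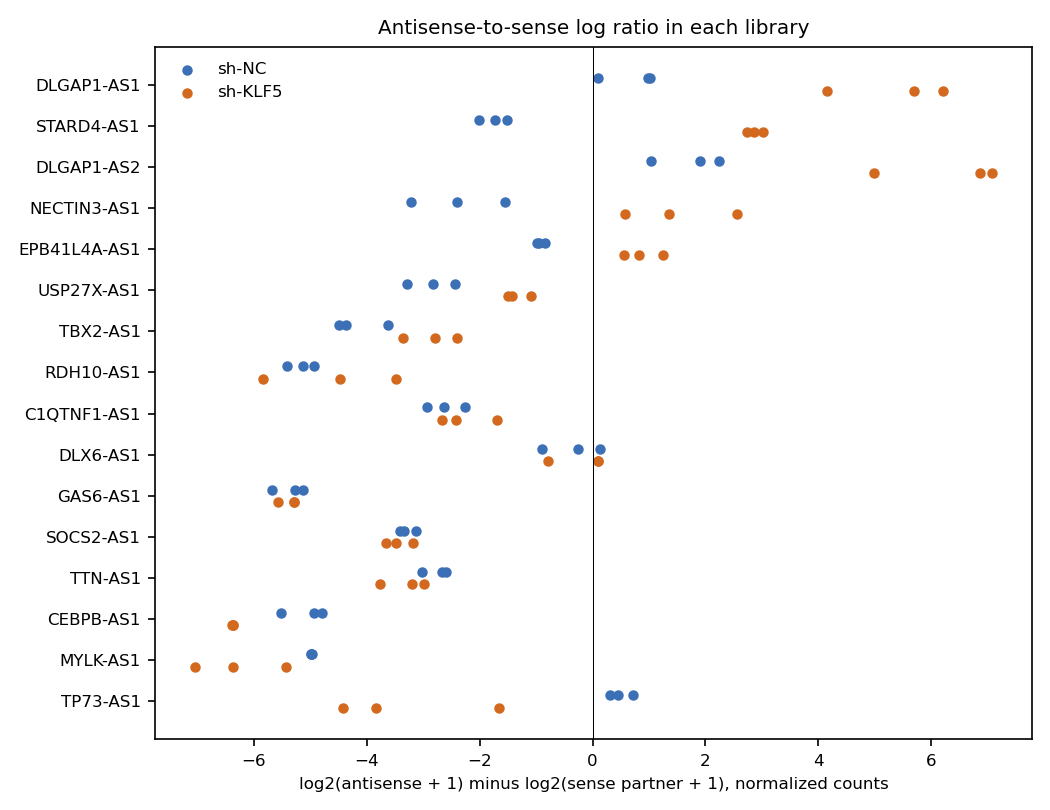
Log ratio of antisense gene to sense partner in each library (horizontal axis, log2 of the normalized counts + 1) for the 16 tested pairs with at least 1 called gene, with sh-NC in blue and sh-KLF5 in orange. The DLGAP1-AS1, STARD4-AS1, DLGAP1-AS2 and NECTIN3-AS1 pairs have sh-KLF5 far to the right, TP73-AS1 has it far to the left, and DLX6-AS1, SOCS2-AS1 and GAS6-AS1 overlap.

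Calls fell in several classes of layout. Of the 82 pairs with starts within 1000 bases, 1 antisense gene was called higher and none lower by limma. Of the 40 with starts farther but within 10000 bases, 2 were lower and 2 higher, and of the 103 farther apart, 4 were lower and none higher. The share of pairs with the same sign was 60.0%, 59.5% and 57.7% in these classes. Of the 49 antisense genes with no exonic base shared with the other strand, 1 was called lower (TBX2-AS1) and 3 higher (NECTIN3-AS1, USP27X-AS1 and C1QTNF1-AS1), and of the 186 with shared bases 6 were called lower and none higher. Over all tested genes, 3.37% were called lower and 1.9% higher. Of the called antisense genes, 5 that fell reached the minimum mean in sh-NC only, and 2 that rose reached it in sh-KLF5 only. The differences between the layout classes were not tested.

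**Figure D5:**
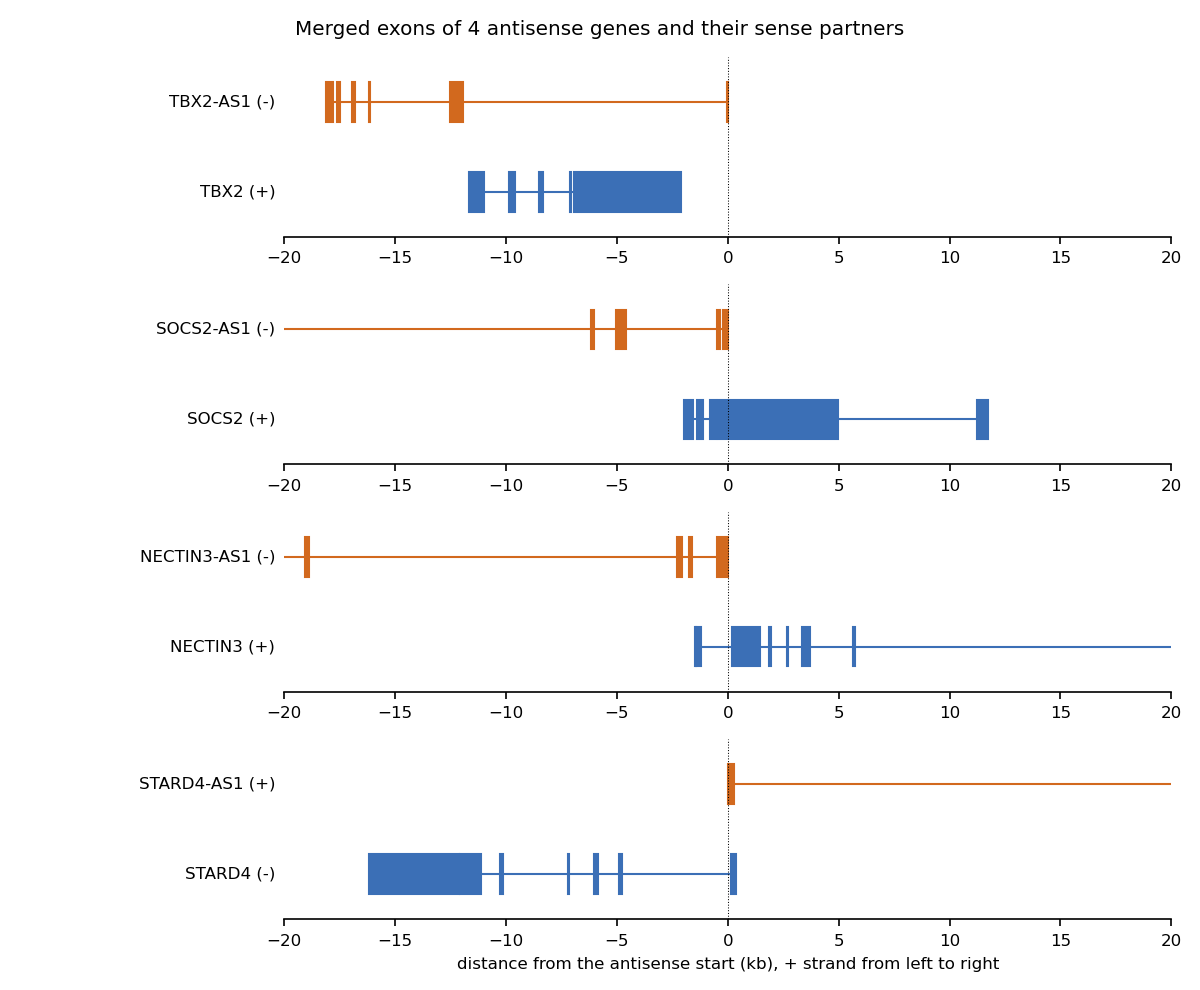
Merged exons (boxes) of 4 antisense genes (orange) and their sense partners (blue) by distance in kb from the antisense start, within 20 kb on either side, with the strand in brackets. TBX2 lies within an intron of TBX2-AS1, SOCS2-AS1 and STARD4-AS1 start over an exon or beside the start of their partner, and the starts of NECTIN3-AS1 and NECTIN3 are 1482 bases apart.

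Grouped by the partner's role as read from the start of its symbol, 35 antisense genes had transcription factor partners. Of these, 3 were called lower (TP73-AS1, TBX2-AS1 and DLX6-AS1) and none higher, with a median log2 fold change of -0.04 over the 35. All 3 reached the minimum mean in sh-NC only, so they are in the set through the group in which they are high. The calls of TBX2-AS1 and DLX6-AS1 were lost without single libraries. For this class and those that follow, the background was 3.37% lower and 1.9% higher over all tested genes. No class was tested against it. This prefix list also took in partners such as PAXIP1 and ELFN1 that are not DNA-binding factors. None of the 10 genes beside cell cycle, replication and repair partners (OIP5-AS1 and TMPO-AS1 among them) and none of the 17 beside channel, transporter and metabolic enzyme partners (SLC7A11-AS1 and RDH10-AS1 among them) was called by limma. Of the 12 beside adhesion, actin and small GTPase partners, TTN-AS1 was called lower, and of the 15 beside receptor, kinase and signalling partners, SOCS2-AS1 was. The 136 with other partners held 1 called lower and 3 called higher, and HOXB-AS3 was the 1 called among the 10 without a partner row. Over all 235, the median was 0.01.

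The starts of NECTIN3-AS1 and NECTIN3, and of STARD4-AS1 and STARD4, lie close together although the genes of each pair did not move together, so their promoters are shown. The windows are those of RefSeq on GRCh38.p14, from 250 bases before to 50 bases after the RefSeq start. They are written 5' to 3' on the strand of the gene. For NECTIN3, NECTIN3-AS1 and STARD4 the RefSeq start differs from that of GENCODE. Capitals mark matches to CCCCGCCC or its reverse complement GGGCGGGG, the GC-box letters that Kruppel-like and Sp factors are known to bind, and the motifs were chosen after the expression values were known. NECTIN3-AS1 lies at chr3:111069910-111070209 (- strand), NECTIN3 at chr3:111071566-111071865 (+ strand), STARD4-AS1 at chr5:111511976-111512275 (+ strand) and STARD4 at chr5:111512486-111512785 (- strand).
NECTIN3-AS1: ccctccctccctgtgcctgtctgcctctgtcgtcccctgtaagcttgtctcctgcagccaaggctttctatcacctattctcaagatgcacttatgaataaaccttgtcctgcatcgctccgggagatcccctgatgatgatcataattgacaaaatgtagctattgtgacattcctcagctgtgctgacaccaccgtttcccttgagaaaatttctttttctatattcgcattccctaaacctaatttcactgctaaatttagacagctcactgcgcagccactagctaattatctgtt
NECTIN3: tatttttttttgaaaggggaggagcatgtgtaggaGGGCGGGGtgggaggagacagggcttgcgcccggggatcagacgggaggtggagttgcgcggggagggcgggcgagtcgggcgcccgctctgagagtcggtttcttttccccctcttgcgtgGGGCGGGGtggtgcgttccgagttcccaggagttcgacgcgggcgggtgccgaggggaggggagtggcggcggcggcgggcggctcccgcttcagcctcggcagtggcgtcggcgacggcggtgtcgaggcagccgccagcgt
STARD4-AS1: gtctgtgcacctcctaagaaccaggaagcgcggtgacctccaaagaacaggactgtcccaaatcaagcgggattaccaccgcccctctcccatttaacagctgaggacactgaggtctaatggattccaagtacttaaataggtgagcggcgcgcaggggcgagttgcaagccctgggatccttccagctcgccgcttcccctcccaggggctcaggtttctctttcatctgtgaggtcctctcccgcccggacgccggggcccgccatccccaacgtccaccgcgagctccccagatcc
STARD4: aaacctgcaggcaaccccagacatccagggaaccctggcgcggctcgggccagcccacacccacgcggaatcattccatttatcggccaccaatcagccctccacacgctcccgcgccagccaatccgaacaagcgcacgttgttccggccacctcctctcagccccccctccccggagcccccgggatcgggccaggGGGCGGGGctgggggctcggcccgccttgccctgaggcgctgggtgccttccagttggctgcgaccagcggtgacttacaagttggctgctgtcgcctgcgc

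The NECTIN3 window held 2 matches, at -215 and -93 from the start, the STARD4 window 1, at -52, and those of NECTIN3-AS1 and STARD4-AS1 none. The windows of DLX6, DLX6-AS1 and HOXB-AS3, all called lower, held no match to these letters or to the related ones given next. The HOXB-AS3 window (chr17:48595708-48596007, + strand) lies well inside the annotated span of the gene. It does not cover the annotated start. The partner windows were also richer in G and C, at 70.3% for NECTIN3 and 69.0% for STARD4 against 45.3% for NECTIN3-AS1 and 60.7% for STARD4-AS1. The GC-box letters occurred in 23.9% of 209 windows of 168 antisense genes in the set, in 33.4% of 299 windows of 178 partners and in 22.8% of all 35116 windows of the same length. The related letters CCCCACCC or GGGTGGGG, searched on both strands, occurred in 14.8%, 14.7% and 11.1%. Both motifs have 8 letters and differ in 1, no other motif was searched, and a match describes letters and not binding.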

How the data were processed

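RNA-seq of 6 polyA libraries was analysed, 3 of sh-NC and 3 of sh-KLF5 SKOV3 cells, grouped by the sample titles. The submitters' processing notes list HISAT2 2.0.5, featureCounts 1.5.0-p3, DESeq2 1.20.0 and hg38, while the strand setting and the annotation are not given in the sources used here. The authors deposited 1 table with a normalized signal per gene and library, which is the read count divided by 1 factor per library. The log2 fold changes, p-values and group means that the authors gave in the same table were not used. Reads were recovered from the smallest step of each library, and 100% of the values were whole within 1e-06, and the authors' factors equalled median-of-ratios factors. Coordinates of GENCODE release 29 (GRCh38) were found for all 29185 genes.

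Groups were compared with limma 3.58.1 (R 4.3.3, moderated with a mean trend and robust to outliers) on the log2 of the deposited values + 1, a scale which understates changes of low genes, over 15803 genes that passed filterByExpr of edgeR 4.0.16 (minimum count 10), 2-sided, with Benjamini-Hochberg adjustment. Alternatives were edgeR and DESeq2 1.42.0 on the recovered reads, other scalings, pseudocounts, filters and thresholds, a replicate block, each library left out in turn, members with a mean of at least 50 and members without shared exons. Tests were checked on simulated counts. Pairs of libraries of 1 group differed by more than sampling noise (chi-square per degree of freedom 4.33 to 30.4), with sh-KLF5 replicate 1 farthest from the others of its group. Exact intervals are Clopper-Pearson at 95% and cover counting error only.

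The named genes were KLF5, all called members with their partners, members with a called partner, the 5 highest by mean and per kilobase, 3 genes on each side of the minimum, antisense genes of the qPCR genes, and the 5 separated pairs with the largest shift of log ratio in each direction. HOX genes near HOXB-AS3, the genes under the fold threshold and the motifs were added after values were seen. The members and lists were chosen with earlier results of these data known. Some genes covered by the lists are not reported here. Plots were made in Python 3.11.15 (matplotlib 3.10.9).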

Additional observations from a re-analysis of the deposited data

How the results depend on the processing

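As reported, 7 antisense genes were lower and 3 higher, with 2 pairs called in the same direction and 1 in opposite directions. With a pseudocount of 5, DLX6-AS1 and TTN-AS1 lost their calls, which left 5 lower. C1QTNF1-AS1 and USP27X-AS1 lost theirs too, which left 1 gene called higher, and 1 pair was called in the same direction. With at least 10 reads in every library, 3 were lower, and 1 pair was called in the same direction and 0 in opposite directions. This filter removed CCDC144NL-AS1, HOXB-AS3, TBX2-AS1, TP73-AS1 and NECTIN3-AS1 before the test, as they had fewer reads in at least 1 library. The loss of their calls therefore follows from the filter. With limma's treat against a log2 fold change of 1, 3 were lower, 0 higher and 0 pairs were called in either sense. With the adjusted p-value alone, 11 were lower, 7 higher and 7 pairs in the same direction. Among antisense genes with a mean of at least 50, which leaves out 123 of the 235, 0 were called lower or higher and 0 pairs in either sense. Among the 49 without shared exons, 1 was lower and 1 pair was called in the same direction. Both counts are over fewer genes than the 235. Leaving out 1 library gave 4 to 8 lower, 1 to 3 higher and 0 to 3 pairs in the same direction, with 4 lower without sh-NC replicate 1 or 2, 1 higher without sh-NC replicate 2 or sh-KLF5 replicate 1, 0 such pairs without sh-NC replicate 2, 1 without sh-NC replicate 1 or sh-KLF5 replicate 3 and 3 without sh-KLF5 replicate 1. The log ratio difference of GAS6-AS1 turned to 0.033 with a pseudocount of 0.1, and without 1 library it ran from -0.19 to 0.095, and that of DLX6-AS1 from -0.13 to 0.44. Without 1 library, the log2 fold change of MYLK-AS1 ran from -0.36 to 0.45, of OIP5-AS1 from -0.048 to 0.21, of FGD5-AS1 from -0.078 to 0.20 and of WNT5A-AS1 from -0.092 to 0.54, with the negative values without sh-KLF5 replicate 1 or, for WNT5A-AS1, 2. The cause was not tested. Libraries with the same replicate number did not deviate together (correlations 0.059, 0.033 and 0.050). A fit with a replicate block called 8 lower, PSMD6-AS2 being added, and 3 higher, and the pairs stayed at 2 and 1. The median SE was 0.27 over the antisense genes and 0.16 over all tested genes.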
